A study of Homo sapiens with 9 samples.

Results

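The control libraries of MCF10A-YAP cells were 3 of the 9 libraries of the series, taken by their labels as control A, B and C, and they are described here on their own as a survey of which genes the cells used and how strongly. MCF10A cells are a line of human breast epithelium that is immortal but not transformed. MCF10A-YAP cells are MCF10A cells that ectopically express a constitutively active form of YAP from a lentiviral vector (YAP5SA in the study's text), and all control libraries carried this transgene as well as a non-targeting sgRNA introduced with a second vector. Per the labels, the cells grew in DMEM/F12 with 5% horse serum, 10 ng/ml EGF, 10 µg/ml insulin and 0.5 µg/ml hydrocortisone, and RNA was taken below full confluence once selection had ended. MCF10A cells without the transgene are not analysed here, so the part of YAP in any level cannot be told apart from that of the line. None of the sources used here says whether the line was a clone. The series' text calls the replicates biological without saying that they were separate cultures, so the SD may be partly technical.

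YAP is a transcription coactivator that the Hippo kinases hold in the cytoplasm of crowded or unstretched cells. In the nucleus it binds the TEAD factors and switches on genes of growth, adhesion and matrix, among them CCN1, CCN2 and ANKRD1. The breast duct has an inner luminal layer with simple keratins and an outer basal or myoepithelial layer with basal keratins, contractile proteins and hemidesmosomes, the rivets that hold the basal layer to the basement membrane. MCF10A cells are known for a mixed, mostly basal character, and active YAP is known to push them towards epithelial to mesenchymal transition (EMT).

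Replicates A, B and C held 25.3, 25.2 and 25.1 M estimated reads. Levels are in TPM, a transcript abundance that divides the reads by the length of each transcript and scales every library to the same total, so that levels of different genes can be set side by side. Values are means ± SD over the 3 libraries (n = 3) unless single libraries are given. A gene with at least 1 TPM in every library is counted as detected, and 12473 of 59293 annotated genes were, among them 11119 of 19828 protein-coding genes (56.1%). The median over the protein-coding genes was 3.54 TPM. The share of 56.1% is the background for every count of detected list genes below. Libraries A and B were closer to each other than either was to C: chi-square over its degrees of freedom, computed on the summed reads, was 2.15 for A against B, 4.21 for A against C and 4.41 for B against C, where 1 is counting error alone. A count of 0 in a library allows up to 3 reads, or 0.119 reads per M, by counting error only.

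The way transcripts were joined into genes set some levels. Transcripts shorter than 500 nt took 25.1% ± 0.278 of all TPM but 1.83% ± 0.00772 of the reads, because their effective length is the annotated length less a fragment length of 249 nt wherever that leaves enough bases. Beside the summed TPM, a rebuilt TPM was therefore computed from a gene's summed reads and its longest transcript. Genes with 1 transcript rise by 1.86 times on this scale, since the others shrink, and 2489 of the 12473 detected genes (19.96%) fall by more than 1.5 times. For a gene of that kind the rebuilt value is printed here beside the summed one. The receptor gene FGFR1 is an example, with 349, 312 and 394 TPM summed in replicates A, B and C, 61.1% of it on short transcripts, and 87.2 TPM rebuilt. A rebuilt value can also fall without short transcripts, where the longest transcript is a minor one. The ligand gene NRG1 had no TPM on transcripts under 500 nt but goes from 46.9 to 14.5 TPM. Its longest transcript, of 11618 nt, held 10.7% of its reads. The rebuilt TPM is thus a second scale and not a corrected level.

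**Figure D1:**
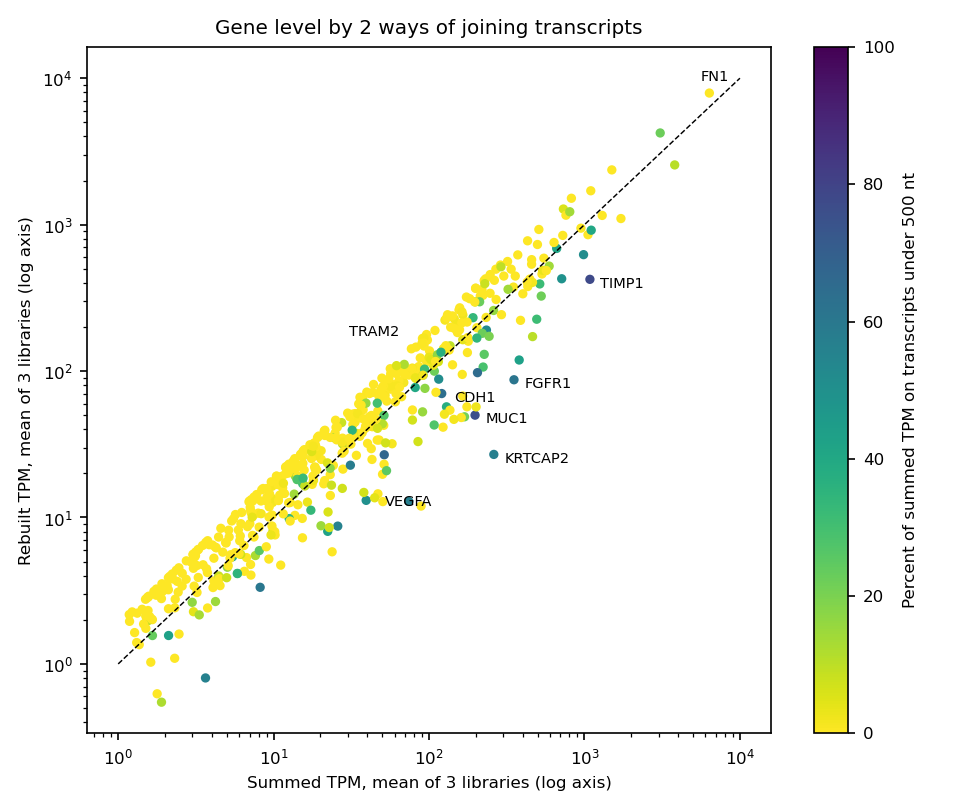
Mean summed TPM (x axis) against mean rebuilt TPM (y axis) of detected genes of the lists, both on log axes, with 1 point per reported gene coloured by the share of summed TPM on transcripts under 500 nt. Most points lie on or above the dashed line of equal values, and genes such as TIMP1, FGFR1 and MUC1, whose TPM sits largely on short transcripts, lie far below it.

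Matrix and adhesion genes were among those with most reads. FN1, which encodes fibronectin, took more reads than any other gene, 3.36% ± 0.24 of all reads. Among the next were actin (ACTB) with 0.94% and thrombospondin 1 (THBS1) with 0.915%. The integrin ITGB1, the keratin KRT7 and IGFBP3 were also among the 25 genes with most reads. The 10 genes with most reads held 9.62% ± 0.131 of the reads.

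By TPM the order differed, since short mRNAs weigh more there. ANXA2, an annexin of the cell surface, stood at 10681 ± 161 TPM (rebuilt 4519.9 TPM), the elongation factor EEF1A1 at 8392 ± 19.3 TPM (rebuilt 4235 TPM), ACTB at 8211 ± 246 TPM, the metallothionein MT2A at 6897 ± 101 TPM (rebuilt 3635 TPM) and FN1 at 6358 ± 473 TPM. Of the 25 nuclear genes highest by TPM, RPS28P7, RPL39P3 and TMSB4XP6 are annotated as processed pseudogenes of at most 210 nt, and the 10841 TPM of RPS28P7 rested on 2681 reads per library. Reads of such copies cannot be told apart from those of their parent genes. The 13 mitochondrial protein-coding genes took 8.82% ± 0.9 of TPM and 2.65% ± 0.205 of reads, and MT-ATP8 alone, with a transcript of 207 nt, stood at 40329, 38838 and 30893 TPM from 8744 reads per library. The 86 cytosolic ribosomal protein genes took 13.6% ± 0.0606 of TPM.

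The keratins combined simple and basal members. Keratins are the intermediate filaments of epithelial cells and pair up as a type II with a type I chain. KRT7, a simple type II keratin of ducts, was the highest, with 3075, 3050.5 and 3082 TPM in replicates A, B and C. KRT8 stood at 1064, 1055 and 1040.1 TPM, and its partner KRT18 at 711, 744 and 719.6 TPM, so the libraries differed little. The annotated main transcript of KRT8 was not in the table, and its value came from the others. Among the basal keratins KRT5 stood at 1259.8, 1337 and 1302 TPM, KRT6A, a keratin of wounded and fast-growing epithelium, at 718, 740.0 and 736 TPM and KRT17 at 440.5, 446 and 449 TPM. The usual type I partner of KRT5, KRT14, stood at only 11.5, 12.7 and 11.7 TPM, a level 109 ± 3.03 times below that of KRT5 (52.6 times rebuilt). KRT15 had 27.7 ± 3.82 TPM (rebuilt 15.8 TPM) and KRT16 15.4 ± 0.895 TPM. KRT19, a marker of luminal cells, held 5, 7 and 5 reads in the 3 libraries, or 0.339 ± 0.124 TPM, and KRT20, a keratin of gut, had none.

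Summed over their lists, simple keratins reached 4847 ± 4.67 TPM and basal keratins 2539.9 ± 58.3 TPM, a basal to simple ratio of 0.524 ± 0.0122. On summed TPM the ranges of neighbouring keratins in the order of levels did not overlap between libraries for any of the detected members of either list. Overlap was not examined on rebuilt TPM, where the order of KRT15, KRT16 and KRT14 can differ. KRT6A, KRT6B and KRT6C share long stretches of sequence, as do KRT14, KRT16 and KRT17, and the division of reads among them is an estimate by the authors' quantifier. Without KRT6A, KRT6B, KRT6C and KRT16 the ratio was 0.368.

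Hemidesmosome and basement membrane anchor genes were all present. All 9 listed genes were detected, 7 of them at 100 TPM or more, with a median of 234 TPM against 3.54 TPM over all protein-coding genes. Of the chains of laminin-332, the ligand of the hemidesmosome, LAMB3 stood at 544, 545 and 555 TPM and LAMA3 at 425, 426 and 444 TPM. The integrin chains ITGA6 and ITGB4, which bind it, stood at 149.6 ± 7.55 TPM (its annotated main transcript was not in the table) and 234 ± 11.2 TPM, of which 52.7% lay on short transcripts, the linker plectin (PLEC) at 165 ± 6.91 TPM, the transmembrane collagen COL17A1 at 59.3 ± 1.12 TPM and dystonin (DST) at 51.1 ± 5.53 TPM. The annotated main transcript of DST was not in the table either. On summed TPM no neighbours in this order overlapped between libraries. Rebuilt, the order differed, with PLEC at 242 TPM, ITGA6 at 210 TPM and ITGB4 at 191 TPM.

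Cell to cell junction genes were present with gaps. Of 25 adherens and tight junction genes 21 were detected, and of 12 desmosome genes 9, against 56.1% of all protein-coding genes. The catenins that tie cadherins to actin were led by CTNNA1 with 516 ± 19.4 TPM and CTNNB1 with 124 ± 3.27 TPM. CDH1, which encodes E-cadherin, stood at 117, 120.4 and 125 TPM, but 63.8% of this lay on short transcripts and the rebuilt value was 70.2 TPM. P-cadherin (CDH3), a basal cell cadherin, had 42.5 ± 3.36 TPM. The desmosomal cadherin DSG2 led its list with 90.6 ± 1.34 TPM, desmoplakin (DSP) had 36.8 ± 2.57 TPM and plakoglobin (JUP) 18.8 ± 2.59 TPM, while DSG1, DSC1 and PKP1 of stratified skin were each under 0.1 TPM. The tight junction scaffold TJP1 had 77.7 ± 0.926 TPM, but the sealing claudins were low: CLDN4 had 13.7 ± 0.614 TPM, CLDN1 3.66 ± 0.254 TPM and CLDN7 2.11 ± 1.14 TPM. CLDN3, CLDN8 and TJP3 had no reads in any library, and occludin (OCLN) stood at 0.873 ± 0.23 TPM.

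Regulators of epithelial fate were uneven. Of 22 listed genes, 15 were detected, against 56.1% of all protein-coding genes. The protease inhibitor SPINT2 led with 380.1 ± 38.98 TPM (rebuilt 119 TPM), followed by the transcription factor KLF5 with 105, 86.6 and 133 TPM. The splicing factors ESRP1 and ESRP2, which hold epithelial exon choice, stood at 20.2 ± 2.59 TPM and 22.2 ± 1.23 TPM, and GRHL2, a factor of the epithelial state, at 51.5 ± 19.8 TPM (rebuilt 26.8 TPM). TP63, the master factor of basal epithelium, held 2, 1 and 1 reads in replicates A, B and C. Its annotated main transcript was in the table, and in A and B most of its TPM lay on a retained-intron transcript of 546 nt. ELF3, GRHL1, EHF, OVOL1 and GRHL3, factors of luminal or differentiating epithelium, stood between 0.0506 and 1.08 TPM, and SOX2 had no reads.

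Luminal breast markers were mostly missing. Only SLPI, a secreted protease inhibitor, MUC1 and GATA3 were detected out of the 18 genes with an annotation. Of all protein-coding genes 56.1% were detected. SLPI stood at 239.9, 249.8 and 252 TPM. MUC1, an apical mucin, had 247, 153 and 193 TPM, and its rebuilt value was 49.98 TPM with 76.5% of the sum on short transcripts. GATA3, the luminal master factor, stood at 26.3, 27.5 and 29.5 TPM. The oestrogen receptor ESR1 held 67, 62 and 91 reads or 0.544 ± 0.121 TPM and FOXA1 0.465 ± 0.344 TPM. PGR, KIT, AGR3, TFF1, TFF3, ANKRD30A and SPDEF had no reads in any library. Of the milk protein genes CSN1S1, CSN2, CSN3 and BTN1A1 had none, although the annotated main transcript of BTN1A1 was not in the table, and LALBA had 0.0314 TPM.

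Mesenchymal genes stood beside the epithelial ones. Of 20 listed genes 13 were detected, against 56.1% of all protein-coding genes. Of these 13, 4 stood at 100 TPM or more in every library, as did 1378 of all 12473 detected genes. NT5E, the surface nucleotidase CD73, stood at 451, 454 and 465 TPM, vimentin (VIM), the mesenchymal intermediate filament, at 353, 365 and 357 TPM, the receptor kinase AXL at 214, 220.1 and 231 TPM and the protease FAP, best known from activated fibroblasts, at 125, 105 and 114 TPM. Of the EMT transcription factors SNAI2 was highest with 103, 99.9 and 98.96 TPM, followed by TWIST1 with 17.4, 16.5 and 15.5 TPM and ZEB1 with 13.8, 13.7 and 13.2 TPM. ZEB2 had 4.13 ± 0.305 TPM, TWIST2 3.14 ± 0.191 TPM and SNAI1 0.229 ± 0.112 TPM. On summed TPM the libraries of neighbouring genes in this order overlapped only for FOXC2 and S100A4.

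N-cadherin (CDH2) stood at 28.7, 24.3 and 23.3 TPM, so E-cadherin exceeded it by 4.79 ± 0.672 times on summed TPM and by 2.07 ± 0.0796 times rebuilt. TCF4 had 21.2, 0.899 and 7.69 TPM, of which 90.6% lay on short transcripts and 0.959 TPM remained rebuilt. Of other genes of the list that fibroblasts use, CDH11, PRRX1 and THY1 had no reads in any library, PDGFRA had 0.0141 TPM and PDGFRB 0.4 ± 0.206 TPM, while decorin (DCN), a proteoglycan of connective tissue in another list, stood at 50.4 ± 1.89 TPM (rebuilt 12.8 TPM). In bulk RNA, cells that express both programmes and a mixture of epithelial and mesenchymal cells cannot be told apart, nor can fewer cells of a type and less RNA per cell.

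Contractile and squamous genes were partly present. TAGLN, an actin bundler of smooth muscle, stood at 463 ± 30.7 TPM (rebuilt 172 TPM), caldesmon (CALD1) at 137 ± 13.8 TPM, smooth muscle actin (ACTA2) at 54.9, 55.3 and 51.8 TPM and the oxytocin receptor (OXTR) at 13.3 ± 0.674 TPM. The late contractile genes CNN1, ACTG2 and MYH11 stood at or under 0.327 TPM and LMOD1 had no reads. Of 17 squamous genes 8 were detected, against 56.1% of all protein-coding genes. SFN, a 14-3-3 protein, had 269 ± 6.26 TPM, the envelope protein involucrin (IVL) 35.9 ± 0.349 TPM and transglutaminase 1 (TGM1) 16.5 ± 0.53 TPM. On summed TPM, with rebuilt values not given here, KRT10 stood at 50.2, KRT4 at 13.6, KRT13 at 9.72, CNFN at 5.68 and CDSN at 2.16 TPM. SPRR1A, SPRR3, LORICRIN and TGM3 of terminally differentiated layers had no reads.

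Markers of other tissues were at or near 0. None of the 5 adipocyte, 7 neural and neuroendocrine or 9 other organ markers was detected. Among 11 blood cell markers 1 was detected, the lysosomal protein CD68 with 43.1 ± 2.11 TPM, while PTPRC, CD3E, MS4A1 and HBB were between 0 and 0.014 TPM. Among 6 endothelial markers EGFL7 was detected with 5.04 ± 0.994 TPM, and CDH5, VWF and CLDN5 were between 0 and 0.0107 TPM. The keratins, junctions and hemidesmosomes were thus those of an epithelium, with the basal factor TP63 and most luminal factors at or near 0. These genes do not separate breast from other epithelia, and the breast origin rests on the label. Of the breast lists, 3 of 18 luminal markers and 0 of 5 milk protein genes were detected.

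**Figure D2:**
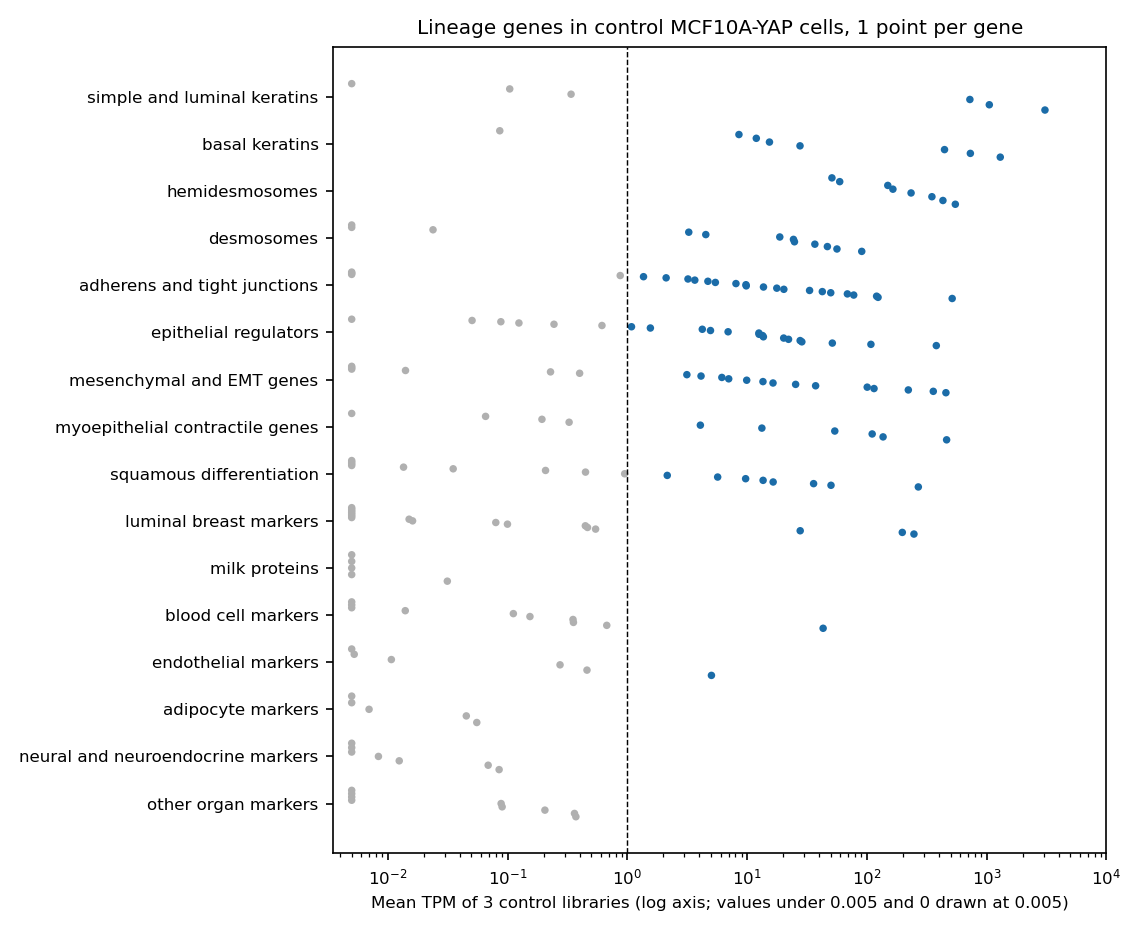
Mean TPM over the 3 control libraries (x axis, log) of genes of 16 lineage lists (rows), 1 point per reported gene, blue from 1 TPM upwards and grey below it. Simple and basal keratins, hemidesmosome and junction genes reach far to the right together with mesenchymal genes, while milk protein, adipocyte, neural and other organ markers lie below the dashed line.

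Matrix genes held a larger share of the reads than of TPM, with FN1 in front. The matrix lists held 224 genes, and 105 of them (46.9%) were detected, against 56.1% of all protein-coding genes. Together they took 8.10% ± 0.245 of the reads and 2.84% ± 0.0467 of TPM, and FN1 and THBS1 together gave most of these reads. FN1 stood at 6157, 6019 and 6898 TPM in replicates A, B and C, on chr2:216225163-216300796 of GRCh37. It was highest in replicate C.

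THBS1, which binds matrix and cell surface proteins, stood at 3776, 3748 and 3889 TPM (rebuilt 2557 TPM). Next among the matrix glycoproteins were TGFBI, a TGF-beta induced adhesion protein, with 948 ± 13.8 TPM, the fibulin EFEMP1 with 533 ± 6.55 TPM, FSTL1, a secreted glycoprotein that the study singled out, with 527 ± 17.6 TPM (rebuilt 325 TPM) and CCN1, a matricellular YAP target, with 509 ± 6.93 TPM. MFAP5 of elastic microfibrils had 243 ± 12.7 TPM, periostin (POSTN) 145 ± 6.43 TPM and CCN2 131 ± 1.57 TPM. Of 42 genes in that list 23 were detected. Osteopontin (SPP1), elastin (ELN), FREM1, CCN4 and CCN6 had no reads, tenascin C (TNC) stood at 0.257 ± 0.166 TPM and the basement membrane protein SPARC at 0.152 ± 0.118 TPM.

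Collagens were few. Of 41 listed collagen genes 16 were detected, against 56.1% of all protein-coding genes, and 3 reached 100 TPM in every library. These were COL8A1, a short-chain network collagen, with 255, 206 and 199 TPM, and the basement membrane chains COL4A2 with 206, 192 and 197 TPM and COL4A1 with 109, 108 and 110.3 TPM. COL8A1 and COL4A2 overlapped in their libraries. COL4A2 exceeded COL4A1, its neighbour on the same promoter, by 1.81 ± 0.0633 times, and FN1 exceeded COL4A1 by 58.2 ± 3.77 times. COL12A1 had 61.98 ± 7.32 TPM and COL4A5 42.6 ± 3.59 TPM. Type I collagen was at 0.625 ± 0.3 TPM for COL1A1 and 0.106 ± 0.0872 TPM for COL1A2, and COL3A1 at 0.03 ± 0.0344 TPM. COL7A1, the anchoring fibril collagen, had 2.99 ± 1.11 TPM, and its annotated main transcript was not in the table.

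The enzymes that build and fold collagen were nevertheless broadly present. Of 30 listed genes 21 were detected, against 56.1% of all protein-coding genes, and 8 reached 100 TPM. P4HB, the shared subunit of prolyl 4-hydroxylase and a disulphide isomerase, had 1105 ± 30.2 TPM, the lysyl hydroxylase PLOD2 498 ± 11.3 TPM, the crosslinking oxidases LOXL2 and LOX 214 ± 4.58 TPM and 203 ± 1.93 TPM, and the chaperone SERPINH1 86.5 ± 1.22 TPM. P3H1, a prolyl 3-hydroxylase named in the study, stood at 36.5, 32.6 and 31.1 TPM, its partner CRTAP at 175 ± 3.52 TPM (rebuilt 57.00 TPM), and P3H2 and P3H3 at 31.4 ± 2.15 TPM and 18.5 ± 0.76 TPM.

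Of the remaining laminins, LAMC1 with 179 ± 17.3 TPM, LAMB1 with 157 ± 8.47 TPM, LAMA5 with 129 ± 11.2 TPM (rebuilt 56.98 TPM) and LAMB2 with 78.2 ± 9.01 TPM (rebuilt 46.3 TPM) were detected, and LAMC1 and LAMB1 overlapped. Fibulin 1 (FBLN1) led the basement membrane partners with 337 ± 4.86 TPM, while nidogen 1 (NID1) stood at 0.00869 TPM and FBLN2 and TINAG had no reads. Among the proteoglycans SDC4 had 231 ± 4.18 TPM, serglycin (SRGN) 226 ± 4.20 TPM and SDC1 141 ± 4.12 TPM.

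The metalloproteinase inhibitors stood above the metalloproteinases. MMP14, a membrane-bound metalloproteinase, was the only one of 23 matrix metalloproteinases over 10 TPM, with 157, 148 and 152 TPM. MMP2, a gelatinase, stood at 0.766, 2.60 and 0.709 TPM, MMP9 and MMP3 at 0.094 and 0.0965 TPM, and MMP8, MMP12, MMP13, MMP20, MMP26 and MMP27 had no reads. TIMP1, a secreted inhibitor of these enzymes, stood at 1101, 1100.4 and 1049 TPM (77.7% on short transcripts, rebuilt 423 TPM), TIMP2 at 158 ± 3.54 TPM and TIMP3 at 12.1 ± 0.557 TPM. The summed TIMPs exceeded the summed MMPs by 7.14 ± 0.303 times on summed TPM and by 3.40 ± 0.0404 times rebuilt.

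In the plasminogen system the activators PLAT and PLAU stood at 162 ± 7.99 TPM and 13.8 ± 1.19 TPM. The urokinase receptor PLAUR had 74.1 ± 3.27 TPM, and maspin (SERPINB5), a serpin of breast epithelium, 260.2 ± 8.06 TPM. Of 15 kallikreins, serine proteases of skin and glands, none was detected in every library, the highest being KLK5 with 0.956, 1.52 and 1.48 TPM.

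Among secreted signals a few were very high and some had no reads. Of 242 ligand and antagonist genes 86 (35.5%) were detected, against 56.1% of all protein-coding genes. No reads were found for 66 of them. Over annotated genes of all types this held for 31804 of 59293. That set includes 10044 processed pseudogenes and 17349 long noncoding RNA genes, so it is an unlike background, and the count over protein-coding genes was not made. The ligand and antagonist genes together took 0.879% ± 0.0135 of the reads. IGFBP3, which binds insulin-like growth factors, was the highest with 1537, 1492 and 1469 TPM. IGF2 had 5.93 ± 0.387 TPM and IGF1 0.00645 TPM. In the EGF family, amphiregulin (AREG) stood at 832, 836 and 803 TPM, epigen (EPGN) at 197, 174 and 205 TPM, neuregulin 1 (NRG1) at 46.9 ± 4.74 TPM (rebuilt 14.5 TPM), TGFA at 36.6 ± 3.33 TPM and HBEGF at 14.9 ± 0.345 TPM. AREG exceeded TGFA by 22.6 ± 1.81 times, and on summed TPM no neighbours in this family overlapped. EREG and BTC stood at 0.707 and 0.32 TPM, and EGF itself, supplied in the medium, at 0.00449 TPM.

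In the WNT and TGF-beta families an antagonist stood above the highest ligands, while other antagonists were lower. The WNT inhibitor DKK1 stood at 525, 538 and 548 TPM, against 56.4 ± 0.867 TPM for WNT5A and 47.9 ± 1.78 TPM for WNT5B, the highest WNT ligands. The activin and TGF-beta family antagonist FSTL3 had 219 ± 2.62 TPM, against 53.5 ± 2.39 TPM for TGFB2, 48.9 ± 1.60 TPM for INHBA, the activin A subunit, and 27.4 ± 1.13 TPM for TGFB1. Of 10 listed TGF-beta and BMP antagonists 4 were detected, and besides FSTL3 these were TWSG1 with 43.3 TPM, NOG with 3.28 TPM and FST with 1.90 TPM. Of 23 genes in the FGF list FGF2 was the only one over 10 TPM, with 30.9 ± 1.08 TPM. ANGPTL4, a regulator of lipoprotein lipase, had 457 ± 21.5 TPM, PDGFC 78.2 ± 2.41 TPM and VEGFA 44.7 ± 0.392 TPM (rebuilt 13.6 TPM, with its annotated main transcript not in the table).

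Inflammatory signals were few. Of 49 interleukins and haematopoietic cytokines 12 were detected, led by MIF with 372 ± 10.7 TPM and IL18 with 135 ± 4.06 TPM. IL6 and IL1B stood at 0.183 and 0.144 TPM, and TNF, IFNB1, IFNG, OSM and CSF3 had no reads. The chemokine CCL20 had 30.3, 32.8 and 32.8 TPM, CXCL8 2.43 ± 0.266 TPM and CXCL1 3.11 ± 0.318 TPM, while CXCL9, CXCL10 and CXCL12 had no reads. Among guidance and peptide signals SEMA3C stood at 233 ± 4.57 TPM, GAS6, the ligand of AXL, at 183 ± 4.95 TPM and protein S (PROS1) at 92.8 ± 0.945 TPM.

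**Figure D3:**
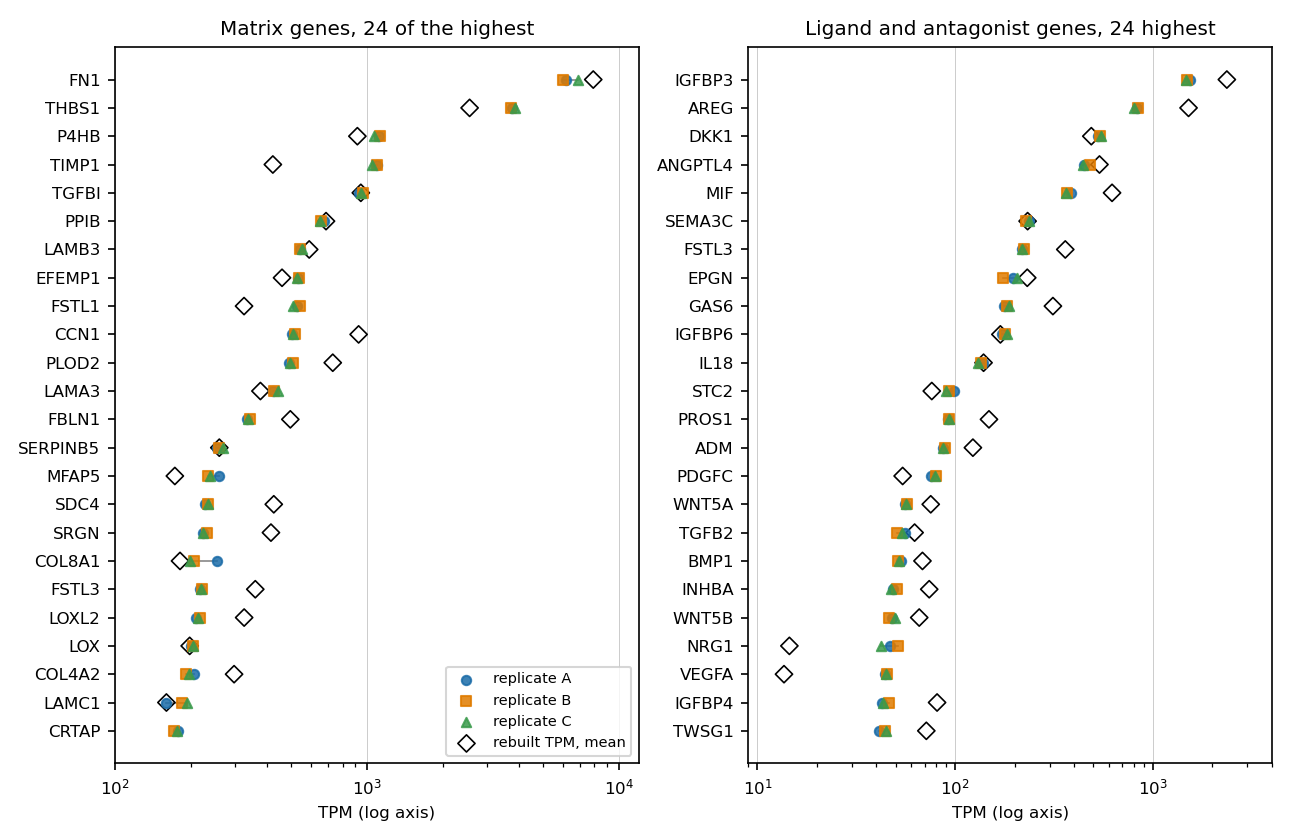
TPM (x axes, log) of 24 of the highest matrix genes and the 24 highest ligand and antagonist genes, with 1 coloured mark per control library and an open diamond for the mean rebuilt TPM. The coloured marks of a gene lie close together, FN1 and THBS1 stand to the right of all others, and TIMP1, NRG1 and VEGFA have diamonds far to the left of their marks.

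Receptors of the supplements in the medium were all detected, but at different levels. EGFR, the receptor of EGF, stood at 122, 121 and 137 TPM. INSR, the insulin receptor, stood at 1.98, 1.82 and 2.52 TPM, and IGF1R, which high insulin also binds, at 10.1, 9.44 and 9.34 TPM. NR3C1, the glucocorticoid receptor and target of hydrocortisone, stood at 35.8, 36.00 and 36.8 TPM. IGF1R exceeded INSR by 4.67 ± 0.832 times on summed TPM and by 2.37 ± 0.147 times rebuilt.

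Of 295 receptor genes 155 (52.5%) were detected, against 56.1% of all protein-coding genes. Among 58 receptor tyrosine kinases 23 were, and the highest by summed TPM was FGFR1 with 352 ± 41.2 TPM. Its rebuilt value of 87.2 TPM was below AXL (329 TPM), EGFR (223 TPM), EPHA2 (168 TPM) and MET (163 TPM) on the same scale. By summed TPM AXL had 222 ± 8.72 TPM, the hepatocyte growth factor receptor MET 97.6 ± 0.505 TPM and the ephrin receptor EPHA2 92.7 ± 1.14 TPM. ERBB2 stood at 42.3 ± 2.94 TPM, its partner ERBB3 at 14.7, 4.74 and 5.16 TPM (rebuilt 3.34 TPM), and ERBB4 had no reads. EGFR exceeded ERBB2 by 2.995 ± 0.0704 times on summed TPM and by 5.30 ± 0.398 times rebuilt. Below EPHB4 most neighbours in the order overlapped, 13 of 22 in all.

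Integrins, the receptors of fibronectin, laminin and collagen, were led by the shared chain ITGB1 with 1101, 1088 and 1103 TPM. ITGA3, which pairs with it on laminin-332, stood at 767, 675 and 698 TPM (rebuilt 427 TPM), ITGB5 at 223 ± 10.2 TPM (rebuilt 107 TPM), ITGAV at 68.9 ± 1.19 TPM, ITGB6 at 63.1 ± 1.59 TPM and the fibronectin receptor chain ITGA5 at 62.5 ± 3.39 TPM. ITGB6 and ITGA5 overlapped in their libraries. ITGA2, a collagen receptor chain, had 25.2 ± 0.675 TPM. Of 26 integrin genes 12 were detected. The hyaluronan receptor CD44 stood at 388 ± 8.09 TPM (rebuilt 222 TPM).

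The TGF-beta receptors were unequal. TGFBR2, the type II receptor, stood at 286, 288 and 290.4 TPM and the type I receptor TGFBR1 at 10.4, 13.1 and 11.8 TPM, a ratio of 24.7 ± 2.75 (36.3 ± 0.454 rebuilt). The co-receptor ENG had 37.3 ± 0.465 TPM. Among cytokine receptors the shared signal chain IL6ST stood at 103 ± 4.31 TPM, OSMR at 41.4 ± 1.44 TPM and LIFR at 5.997 ± 1.19 TPM. TNFRSF12A, the TWEAK receptor, led its family with 401 ± 9.37 TPM, and the TRAIL receptor TNFRSF10B had 146 ± 2.29 TPM and the TRAIL decoy TNFRSF10D 96.4 ± 0.888 TPM. FZD6 with 64.05 ± 1.42 TPM led the WNT receptors, and NOTCH2 with 39.7 ± 3.86 TPM was the only Notch receptor over 10 TPM. GPRC5A, an orphan G protein-coupled receptor, had 292 ± 2.14 TPM. The Hedgehog transducer SMO, the endothelin receptors EDNRA and EDNRB and the stem cell receptor LGR5 had no reads.

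Receptors inside the cell and of guidance cues added to this set. Of 37 nuclear receptors, which bind steroids, retinoids and lipids, 21 were detected, against 56.1% of all protein-coding genes. The orphan receptor NR2F2 led with 53.3, 44.1 and 52.9 TPM, above NR3C1. The lipid sensors PPARG and PPARD stood at 18.9 ± 2.33 TPM and 18.2 ± 0.81 TPM, the retinoic acid receptor RARG at 15.7 ± 0.773 TPM and the vitamin D receptor VDR at 15.4 ± 1.45 TPM. Among 19 guidance receptors 12 were detected, led by the plexin PLXNB2 with 205 ± 25.3 TPM (rebuilt 97.5 TPM) and NRP1, a co-receptor of semaphorins and VEGF, with 81.4 ± 2.41 TPM. PLXNA3 had 74.1 ± 8.90 TPM summed and 12.9 TPM rebuilt. The interferon receptor chains IFNAR1, IFNGR1 and IFNGR2 had 34.1 ± 0.449 TPM, 30.6 ± 1.67 TPM and 32.5 ± 1.36 TPM, with no reads for the ligands IFNB1 and IFNG. The adhesion receptor ADGRG6 had 78.02 ± 2.82 TPM and the sphingosine phosphate receptor S1PR1 25.2 ± 0.424 TPM.

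**Figure D4:**
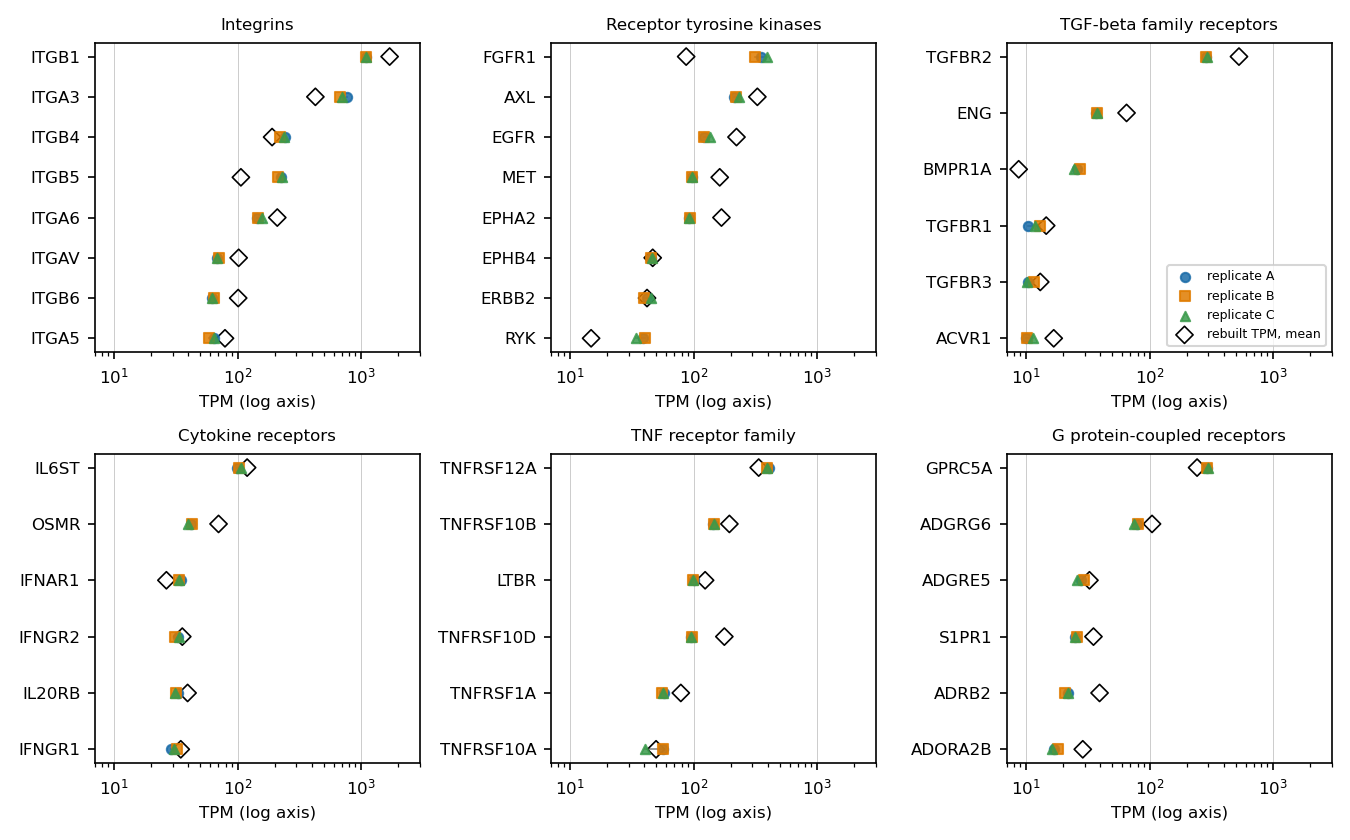
TPM (x axes, log) of the 8 highest integrins and receptor tyrosine kinases and the 6 highest members of 4 other receptor lists, with 1 coloured mark per control library and an open diamond for the mean rebuilt TPM. ITGB1, ITGA3, TNFRSF12A, GPRC5A and TGFBR2 lead their panels, and the diamond of FGFR1 lies to the left of those of AXL, EGFR, MET and EPHA2.

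Several ligands and receptors that bind each other were at very different levels, in pairs chosen here after their values were seen. MET stood at 97.6 TPM with no reads for its ligand HGF. The ligand KITLG stood at 13.95 ± 0.0743 TPM with no reads for its receptor KIT. PDGFC had 78.2 TPM, while its receptor PDGFRA had 0.0141 TPM. Endothelin 1 (EDN1) had 7.78 ± 0.308 TPM with no reads for EDNRA and EDNRB, and VEGFA had 44.7 TPM against 0.461 ± 0.0241 TPM for its receptor KDR. By contrast AREG and EGFR, GAS6 and AXL, and TGFB2 and TGFBR2 were both present, at 824 TPM and 127 TPM, 183 TPM and 222 TPM, and 53.5 TPM and 288 TPM.

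The YAP pathway itself was broadly present. YAP1, on chr11:101981178-102104155, stood at 179, 174 and 176 TPM, and its paralog TAZ (WWTR1) at 22.4, 25.1 and 21.9 TPM, a ratio of 7.66 ± 0.641. Reads of the transgene and of the cells' own YAP1 fall on the same gene and cannot be told apart in these values. Of the DNA-binding partners TEAD1 stood at 93.5 ± 4.09 TPM, TEAD4 at 25.7 ± 1.001 TPM, TEAD3 at 14.8 ± 0.105 TPM and TEAD2 at 5.14 ± 0.339 TPM. The Hippo kinases that restrain YAP were present, STK4 at 61.3 ± 2.14 TPM, STK3 at 42.9 ± 5.10 TPM (rebuilt 24.9 TPM), LATS2 at 17.1 ± 0.73 TPM and LATS1 at 9.41 ± 0.106 TPM. All 22 genes of a list of YAP/TEAD targets were detected, 9 at 100 TPM or more, with a median of 91.4 TPM. Of all protein-coding genes 56.1% were detected. Of the 12473 detected genes 1378 reached 100 TPM, and their median was 17.1 TPM. The list was chosen with earlier results of these data known. Besides IGFBP3 and CCN1 the listed targets included tissue factor (F3) with 804 ± 22.95 TPM, ANKRD1 with 199, 204 and 194 TPM and CCN2 with 129.7, 132 and 133 TPM. The lowest was RBMS3 with 5.11 ± 0.307 TPM. Without unmodified MCF10A cells the part of the transgene in the levels of the targets was not tested.

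TRAM2, the translocon gene that the study followed, was not the main member of its family. TRAM1 stood at 419, 434 and 431 TPM, TRAM2, on chr6:52362206-52441858, at 77.6, 75.3 and 77.9 TPM and TRAM1L1 at 0.458 ± 0.129 TPM. TRAM1 exceeded TRAM2 by 5.57 ± 0.188 times on summed TPM and by 2.86 ± 0.0887 times rebuilt. Of 26 genes of the machinery that brings nascent proteins into the endoplasmic reticulum (ER) 25 were detected, with a median of 124 TPM. The channel subunits SEC61A1, SEC61B and SEC61G had 269.9 ± 5.29 TPM, 247 ± 2.45 TPM and 493 ± 20.9 TPM (the last 226 TPM rebuilt), and the SEC61A1 paralog SEC61A2 had 7.28 ± 0.979 TPM. The signal recognition particle subunit SRP9 had 986 ± 12.99 TPM (rebuilt 624 TPM).

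The oligosaccharyltransferase, which attaches sugar chains to proteins entering the ER, was measured with 1 of its 2 exchangeable subunits. TUSC3 stood at 157, 166 and 167 TPM (rebuilt 94.9 TPM). Its paralog MAGT1, on chrX:77081244-77154768, held 1.25, 1.23 and 2.59 reads in replicates A, B and C, or 0.108 ± 0.0509 TPM, although its annotated main transcript was in the table. The other 11 listed subunits, TUSC3 included, were all detected, and the catalytic subunits STT3A and STT3B had 142 ± 8.53 TPM and 119 ± 5.42 TPM. The subunit KRTCAP2 had 261 TPM summed and 26.96 TPM rebuilt. All 16 ER chaperone genes were detected, from P4HB, given above, and the calcium-binding CALR with 759.7 ± 11.7 TPM to the oxidase ERO1B with 2.40 ± 0.761 TPM, and HSPA5, the BiP chaperone, had 199.7 ± 2.47 TPM.

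Growth genes were at high levels with a local gap. CCND1, the cyclin that starts the cell cycle, stood at 212, 214 and 209 TPM, CDK6 at 47.1 ± 2.94 TPM, MYC at 64.04, 69.6 and 66.2 TPM and the S-phase gene PCNA at 430.4 ± 6.92 TPM. The mitotic genes TOP2A and MKI67 had 176 ± 6.91 TPM and 55.1 ± 6.16 TPM, and the CDK inhibitor CDKN1A 317, 322 and 321 TPM. CDKN2A and CDKN2B, neighbouring CDK inhibitor genes on chromosome 9 at chr9:21967751-21995300 and chr9:22002902-22009304, had no reads in any library. The adjacent gene MTAP, at chr9:21802635-21937650, held 13.1, 5.41 and 5.01 reads or 0.0947 ± 0.0662 TPM. MCF10A cells are known to carry a deletion at CDKN2A, and DNA was not measured here. Telomerase (TERT) stood at 0.254 ± 0.166 TPM.

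Transcript values show how the cells chose exons. The quantifier assigns reads to whole transcripts, so a share of an exon here is the TPM of protein-coding transcripts of at least 1000 nt that include it over that of those that include or skip it, not a count of junction reads. The share is most reliable where the leading transcripts of both kinds otherwise differ little in length. Of the 11243 detected genes with more than 1 transcript, 6217 (55.3%) had 1 transcript with at least 50% of their TPM, and by reads 8497 did.

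Pyruvate kinase (PKM) carries a pair of mutually exclusive exons of 167 nt, of which one gives the M2 form of growing cells and the other the M1 form of muscle and brain. The M2 exon, at chr15:72494795-72494961 (GRCh37, minus strand), was in 96.7%, 96.5% and 96.9% of TPM in replicates A, B and C, and the M1 exon, at chr15:72495363-72495529, in 3.30%, 3.45% and 3.14%. The gene stood at 2469 ± 44.9 TPM, of which the transcripts behind these shares held 1020.5 TPM. The leading transcripts, PKM-202 of 2305 nt with the M2 exon and PKM-219 of 1806 nt with the M1 exon, had 509 ± 47.3 and 31.1 ± 2.68 TPM. Both exons are shown 5′ to 3′ because their difference is what separates the forms, with capitals at the 62 of 167 positions where they differ, 62.9% of bases being the same.
PKM exon of M2: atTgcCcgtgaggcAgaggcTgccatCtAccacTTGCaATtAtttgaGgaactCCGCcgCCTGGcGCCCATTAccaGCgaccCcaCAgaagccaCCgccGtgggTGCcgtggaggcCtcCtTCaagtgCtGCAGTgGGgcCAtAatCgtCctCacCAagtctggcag
PKM exon of M1: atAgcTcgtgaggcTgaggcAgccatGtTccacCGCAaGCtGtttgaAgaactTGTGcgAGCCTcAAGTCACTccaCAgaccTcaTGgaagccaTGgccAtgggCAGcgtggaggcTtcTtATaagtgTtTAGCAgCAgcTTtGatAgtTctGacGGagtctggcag

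Fibronectin has a pair of optional exons, EDA and EDB, which each encode a type III repeat and are known from cellular rather than plasma fibronectin. The EDA exon of 270 nt, at chr2:216245534-216245803 (minus strand), was in 20.7%, 21.5% and 21.4% of TPM in replicates A, B and C, and the EDB exon of 273 nt, at chr2:216257654-216257926, in 19.3%, 19.5% and 19.8%. FN1-211, which skips both, had the highest level with 2646 ± 212 TPM. FN1-212, with EDA, stood at 992 ± 81.8 TPM and FN1-209, with EDB, at 723 ± 69.6 TPM. Between these in level were shorter transcripts, among them the coding FN1-213 of 3720 nt, with 915 ± 42.8 TPM. Outside the exon itself, the leading transcripts with and without it differed in length by 1.01% for EDA and 3.56% for EDB, against 14.4% for the M2 exon of PKM. Both exons are shown 5′ to 3′ in lower case, since the forms differ by these exons.
FN1 EDA exon: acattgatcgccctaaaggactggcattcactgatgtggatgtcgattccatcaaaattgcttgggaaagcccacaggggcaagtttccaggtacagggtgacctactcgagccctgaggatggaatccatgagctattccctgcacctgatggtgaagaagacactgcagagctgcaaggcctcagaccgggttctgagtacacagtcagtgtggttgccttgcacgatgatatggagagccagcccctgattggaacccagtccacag
FN1 EDB exon: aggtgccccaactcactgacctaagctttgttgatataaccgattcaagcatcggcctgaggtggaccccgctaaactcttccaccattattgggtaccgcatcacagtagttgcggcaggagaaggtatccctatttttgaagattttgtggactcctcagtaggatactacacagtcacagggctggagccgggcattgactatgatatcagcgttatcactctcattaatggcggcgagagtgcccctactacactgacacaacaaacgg

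YAP1 itself was split between a long and a nearly bare coding transcript. YAP1-208, of 1490 nt with 1464 coding, stood at 109, 108 and 116 TPM, and YAP1-201, of 5401 nt with 1512 coding, at 39.7, 40.7 and 35.4 TPM. The short one exceeded the long one by 2.90 ± 0.344 times. The YAP5SA transgene and the cells' own transcripts cannot be told apart in either value, and the part of the transgene in the ratio was not tested. The leading transcripts differ too much in length for the share of an exon that separates them to be read closely. The 114-nt exon of the second WW domain was in 94.8%, 95.2% and 96.4% of TPM, and a 48-nt exon, which YAP1-201 has and YAP1-208 lacks, in 32.7%, 32.2% and 32.5%. The shorter of these exons, at chr11:102080248-102080295 (plus strand), is shown because it separates the leading transcripts.
YAP1 48-nt exon: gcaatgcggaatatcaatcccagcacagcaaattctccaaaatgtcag

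Further genes split between forms to different degrees. TPM1, an actin-binding tropomyosin, used the first of its pair of internal 76-nt exons in 90.9% ± 0.492 of TPM and the second in 9.08% ± 0.492. The splicing regulator MBNL1 included its 54-nt exon in 27.9% ± 2.41 and its 36-nt exon in 61.4% ± 2.61 of TPM, and the complement regulator CD46 its 45-nt exon in 59.1% ± 1.31. Laminin alpha 3 was mainly the short form: LAMA3-201 of 5671 nt held 72.1% ± 0.409 of its TPM. EGFR was nearly all full length, with 95.2% ± 0.179 of its TPM and 99.8% ± 0.0295 of its reads on a transcript of 9905 nt. TRAM2 had 1 transcript in the table.

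**Figure D5:**
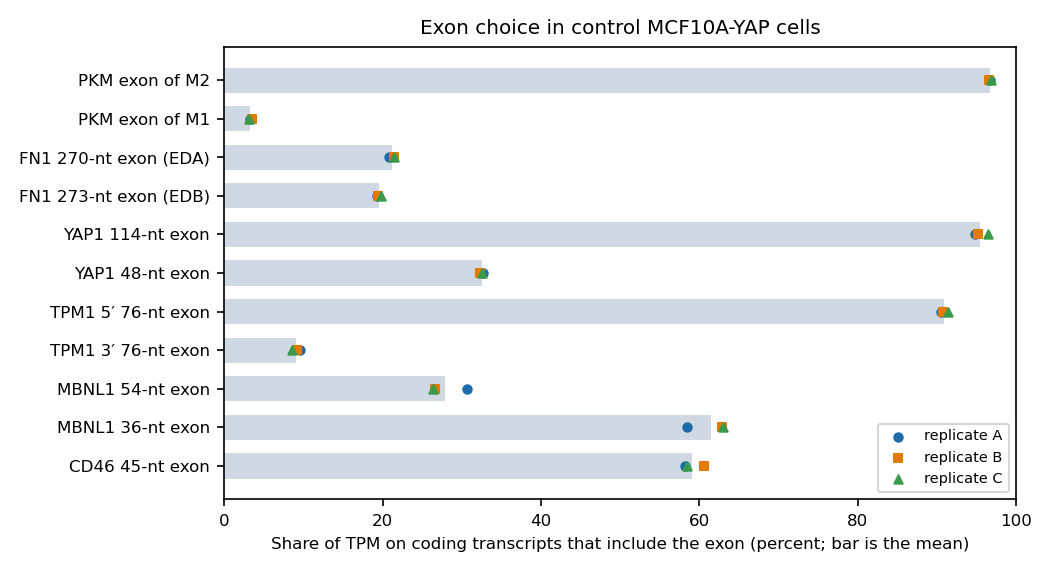
Share of TPM on coding transcripts that include an exon (x axis, percent) for 11 exons of 6 genes, with the bar at the mean and 1 mark per control library. The M2 exon of PKM, the first exon of the TPM1 pair and the YAP1 114-nt exon are above 90% in every library, and both FN1 exons lie near 20%.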

How the data were processed

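RNA from 3 control libraries was sequenced after poly(A) selection, and the 6 knockout libraries of the series entered no step. The labels name a TruSeq RNA kit and the study's methods a stranded TruSeq mRNA kit, and the strand setting of the quantification is not stated. The authors trimmed reads with cutadapt and quantified transcripts with Salmon, and the deposited tables give, for each of 226030 transcripts, an estimated count of reads and a TPM value. The genome build, the transcript release and the tool versions were not given in any source used here.

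Transcripts were matched by identifier to GENCODE v44 on GRCh37 (97.5% matched, 92.00% of these with the same length), and TPM and estimated counts were summed per gene, with Python 3.11.15, pandas 2.3.3 and numpy 2.4.6. Rebuilt TPM divides a gene's summed reads by the effective length of its longest transcript and rescales each library to the same total. Positions and exon sequences are those of the annotation, and were not taken from reads. Exon shares were computed within protein-coding transcripts of at least 1000 nt. Levels were described with no test. The spread was taken on log2(TPM + 1), and estimated counts were rounded for the chi-square and for scaling with edgeR 4.0.16 and DESeq2 1.42.0 in R 4.3.3 as alternatives. The steps were tested on simulated data.

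The members and the 56 gene lists were chosen with earlier results of these data known. From each list the 6 highest genes and those with no reads were to be named, and from the lineage lists any member, beside the 25 highest nuclear genes, the mitochondrial genes and the 12 most variable ones. Other genes named were chosen after their values were seen. CD24 and PECAM1 are not analysed here. Values of a few list genes are not reported here, though counts and sums over the lists include them. Of 1057 list genes, 24 lack their annotated main transcript in the tables. Reads were 25.2 ± 0.0938 M per library, which sets the counting error of low genes.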

Additional observations from a re-analysis of the deposited data

Results flagged for a closer look

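A part of the reads fell outside the gene annotation used for every level above. Transcripts that matched no annotated gene held 1.51%, 1.52% and 1.55% of the estimated reads in replicates A, B and C, which is above what a count of 0 allows. There were 5694 of them, 214 with at least 10 TPM in each library and 3696 with no reads. The 1747 shorter than 500 nt held 58.5% of the TPM of the unmatched transcripts. The genes they come from were not determined, and some may be genes named in the report.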

How the results depend on the processing

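The numbers of detected genes, in all and in the matrix, ligand and receptor lists, stayed within 1.5 times of the reported ones under each alternative tried. The share of the 100 highest genes, 34.9% of TPM, was 23.2% by reads, 42.2% rebuilt and 30.9% over nuclear protein-coding genes. The basal to simple keratin ratio of 0.524 was 0.599 by reads, 0.494 rebuilt and 0.368 without the KRT6 and KRT16 genes. The median SD between libraries, 0.0879 on the log2(TPM + 1) scale, was 0.0963 with a pseudocount of 0.1 and 0.0687 over genes of at least 10 TPM. It was 0.0497 with edgeR TMM and 0.0529 with DESeq2 size factors on summed reads. With a library left out it was from 0.0668 to 0.0699. An SD over fewer libraries has a lower median by construction, so that fall is no test of any library. A dominant transcript was found in 6217 genes, in 2993 at a share of 70% and in 3819 among genes of at least 10 TPM. Of 552 detected list genes, 80 were over 1.5 times lower and 187 over 1.5 times higher rebuilt. The causes were not tested beyond the construction of each alternative. Genes with few reads or with most TPM on short transcripts are the least certain. No paired analysis was possible because no groups were compared.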

Other observations

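The genes that varied most between the control libraries were mostly small RNAs or genes with a short transcript. Among detected genes of at least 10 TPM the 12 with the largest SD of log2(TPM + 1) all had over 50% of their TPM on transcripts under 500 nt. Of all detected genes 799 (6.41%) did. RN7SK, the small RNA that restrains transcription elongation, stood at 23.5, 21.4 and 179 TPM in replicates A, B and C. LINC00511, a long noncoding RNA, stood at 74.9, 64.1 and 14.3 TPM, while its summed reads were 546, 567 and 536 and its rebuilt value 13.03 TPM. PLA2G12A, a secreted phospholipase, had 12.1, 70.3 and 46.01 TPM from 599, 603 and 601 reads. Its rebuilt value was 10.1 ± 0.225 TPM.

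Replicate C differed in the longest transcripts and in the summed share of mitochondrial protein-coding genes. In genes led by transcripts of at least 8000 nt the median difference from the other libraries was 0.0905 on the log2(TPM + 1) scale in C, -0.0594 in A and -0.0519 in B. The mitochondrial protein-coding genes held 9.52%, 9.14% and 7.80% of TPM in A, B and C. Not every mitochondrial RNA was lower in C. The ribosomal RNA MT-RNR2 stood at 2468, 2522 and 2445 TPM, and MT-ND6 at 301, 263 and 335 TPM.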
